A study of Mus musculus with 6 samples.

Results

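The S100 genes encode small calcium-binding proteins that work as dimers, and 10 of them, S100a1, S100a4, S100a6, S100a8, S100a9, S100a10, S100a11, S100a13, S100a16 and S100b, were followed here out of 22298 mouse genes in the table. They were found by symbol after matching Ensembl identifiers to a GRCm38 annotation. All 10 were in the table, and all 10 had enough counts to be tested. Poly(A)-selected RNA was sequenced from hearts of wild-type (WT) female mice aged 18 months, 3 after TAC surgery and 3 after sham surgery. TAC usually stands for transverse aortic constriction in heart research, a band around the aorta that makes the left ventricle pump against higher pressure. The sources used here give neither the strain nor the time from surgery to sampling nor the part of the heart taken. Whether the 6 hearts belong to 6 animals is not stated, and p-values therefore speak only for the spread among these samples.

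Calcium binding to the paired EF-hand loops of an S100 protein opens a surface that grips a partner protein, and most members differ in which partner that is and in which cells make them. S100a1 is the main S100 protein of heart muscle cells, where it binds the calcium release channel and the calcium pump of the sarcoplasmic reticulum. S100a8 and S100a9 form calprotectin, an abundant cytosolic protein of neutrophils and monocytes that, once released, acts as an alarm signal through the receptors encoded by Tlr4 and Ager. S100a4, S100a6, S100a10 and S100a11 are made by fibroblasts, vascular cells and macrophages, and S100a10 and S100a11 pair with annexins at membranes. S100b is best known from glia and is also made by fat cells.

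Of the 10 members, 9 lie on chromosome 3. The promoter windows below come from RefSeq on GRCm38.p6, read on the strand of the gene from 250 bases before to 50 bases after the annotated start. They were available for 9 members, all but S100a10. They are shown because S100a8 and S100a9 had the largest differences of the family and S100a4 the next largest. Capitals mark every match, on either strand, to TATAAA, a core promoter box, or to TTGCNNAA, a core of sites for C/EBP factors. No matches overlap one another. S100a8 is chr3:90668821-90669120 on the plus strand, S100a9 is chr3:90695672-90695971 on the minus strand and S100a4 is chr3:90603520-90603819 on the plus strand.
S100a8: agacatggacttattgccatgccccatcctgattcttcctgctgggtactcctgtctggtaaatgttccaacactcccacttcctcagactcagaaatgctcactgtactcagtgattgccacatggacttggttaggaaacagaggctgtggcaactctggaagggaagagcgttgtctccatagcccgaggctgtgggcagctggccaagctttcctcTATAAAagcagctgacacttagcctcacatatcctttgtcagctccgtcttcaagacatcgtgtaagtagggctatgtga
S100a9: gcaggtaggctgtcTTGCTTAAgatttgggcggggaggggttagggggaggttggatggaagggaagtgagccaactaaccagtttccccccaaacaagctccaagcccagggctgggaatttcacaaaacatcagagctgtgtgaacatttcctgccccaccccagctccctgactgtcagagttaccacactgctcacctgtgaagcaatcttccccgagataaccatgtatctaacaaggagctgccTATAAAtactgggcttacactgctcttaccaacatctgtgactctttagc
S100a4: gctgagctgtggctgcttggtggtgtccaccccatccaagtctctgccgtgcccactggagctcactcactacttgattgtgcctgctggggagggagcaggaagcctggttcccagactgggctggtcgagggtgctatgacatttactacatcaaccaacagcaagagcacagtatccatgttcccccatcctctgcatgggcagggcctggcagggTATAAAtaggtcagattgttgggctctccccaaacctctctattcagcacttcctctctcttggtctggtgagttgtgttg

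TATAAA was present in the S100a8, S100a9 and S100a4 windows and in no window of the other 6 members with a sequence. Among all 32851 promoter windows of the same length, 13.6% held it. It began 30 bases before the annotated start in S100a8 and 31 bases before it in S100a4. In S100a9 it began at the annotated start itself, position 1. The motif TTGCNNAA was found once, in the S100a9 window at 236 bases before the start, and 10.8% of all windows held it. A match describes these letters only.

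S100a1 and S100a13 are transcribed away from each other, and their annotated starts in RefSeq, at 90514330 and 90514435 on chromosome 3, are 105 bases apart. Their windows share 204 bases, chr3:90514281-90514484, shown on the plus strand (that of S100a13) because both genes read out of the same stretch. Neither motif occurs in it.
S100a1 and S100a13: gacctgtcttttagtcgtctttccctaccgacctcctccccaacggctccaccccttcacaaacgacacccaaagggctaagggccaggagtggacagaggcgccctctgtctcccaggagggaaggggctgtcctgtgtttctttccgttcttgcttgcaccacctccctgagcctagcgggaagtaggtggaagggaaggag

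Within the family, RNA differed most between TAC and sham hearts for the myeloid pair, differed little for the muscle member, and lay between these for S100a4, S100a6, S100a10 and S100a11. S100a8 and S100a9 rose (adjusted p under 0.05 in edgeR, by its quasi-likelihood test with Benjamini-Hochberg adjustment over 13708 tested genes). These are 2 of 10 members, where 1.12% of all tested genes were called higher and 1.66% in either direction. The other 8 did not pass, and 0 members were called lower, where 0.54% of tested genes were. At an unadjusted p under 0.05, 7 members were higher, where 16.3% of tested genes were, and 1 member, S100b, was lower, where 9.26% were. DESeq2's Wald test called 4 members higher and 0 lower, where it called 7.81% of tested genes higher and 4.36% lower. Of the members, 9 had a positive log2 fold change, with a median of 0.63 over the 10, against a median of 0.03 over all tested genes. In 7 members every TAC library lay above every sham library, as in 18.4% of tested genes, and in 1 member, S100b, every TAC library lay below, as in 13.1%. The groups did not overlap in 31.5% of tested genes.

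Libraries summed to between 19747265 and 27549838 estimated counts. Levels are in CPM, counts divided by a library size that was scaled by the TMM method. The heart label was checked against Myh6, the main myosin heavy chain of the adult mouse heart, which was at 11526 to 16543 CPM in TAC and 19105 to 20273 CPM in sham. On the first principal component, with 54.6% of the variance of log2 CPM, TAC replicate 1 was at -0.653, TAC replicates 2 and 3 at -48.9 and -53.5, and the sham libraries at 31.4 to 37.3. TAC replicate 1 thus stood nearer to the sham libraries than the other TAC libraries did.

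**Figure D1:**
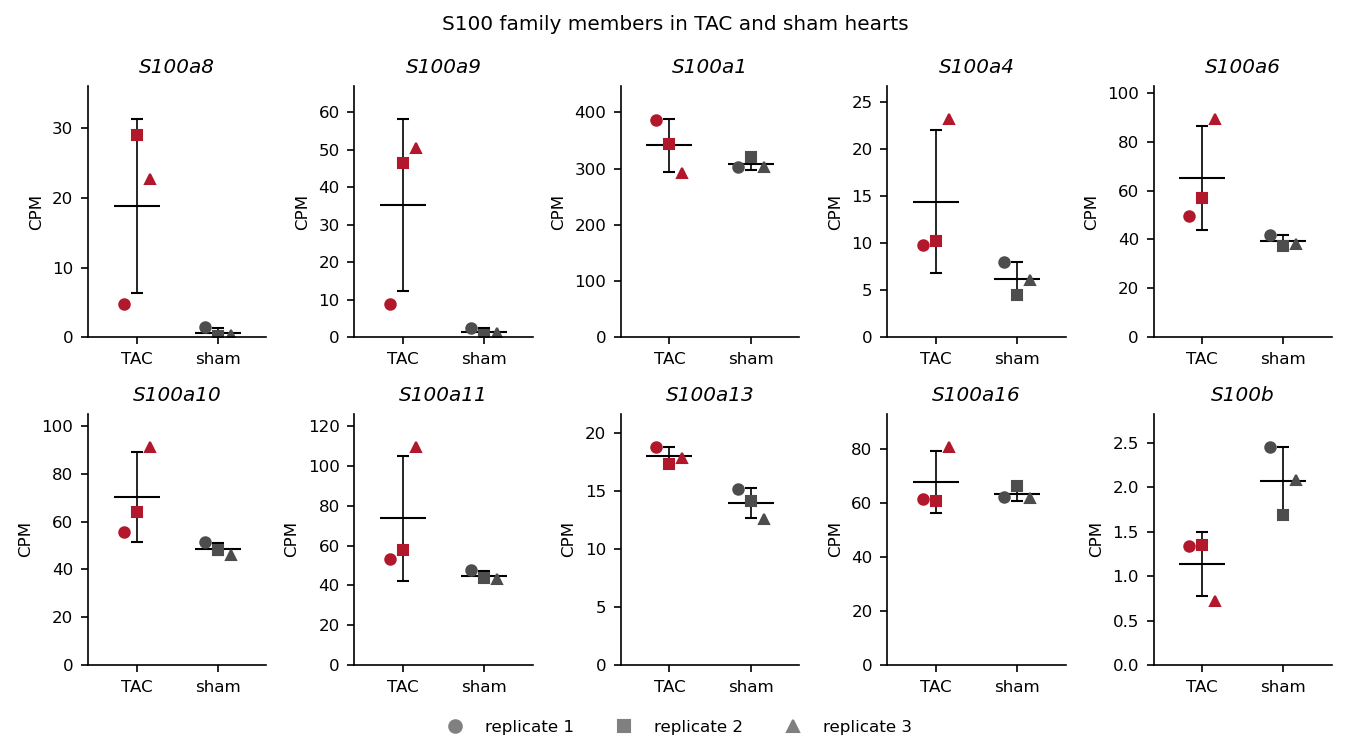
Each panel shows 1 member in CPM (y axis from 0) in the 3 TAC and 3 sham libraries, with the replicate as symbol, the mean as a bar and the SD as whiskers. S100a8 and S100a9 are near 0 in sham, S100a4, S100a6, S100a10 and S100a11 have TAC replicate 3 on top, and S100a1 overlaps between the groups.

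S100a9 (ENSMUSG00000056071, chromosome 3, 90692632 to 90695721, minus strand, GRCm38) encodes the larger calprotectin subunit. It had 8.75, 46.4 and 50.5 CPM in TAC replicates 1, 2 and 3, against 2.46, 0.478 and 1.06 CPM in sham replicates 1, 2 and 3. The groups did not overlap, TAC replicates 2 and 3 were far above TAC replicate 1, and sham replicate 1 was the highest of the sham libraries. The log2 fold change of S100a9 was 4.77 (SE 0.77, adjusted p = 0.0327 in edgeR). The smaller subunit, S100a8 (ENSMUSG00000056054, chromosome 3, 90668978 to 90670035, plus strand), had 4.80, 29.0 and 22.7 CPM in TAC replicates 1, 2 and 3, against 1.39, 0.184 and 0.323 CPM in sham replicates 1, 2 and 3. The same libraries were high and low as for S100a9, with TAC replicate 2 on top. S100a8 was higher by 4.97 on the log2 scale (SE 0.84, adjusted p = 0.0363 in edgeR).

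Both calls were lost when any library other than TAC replicate 1 was left out. When TAC replicate 1 was left out, the edgeR adjusted p of S100a9 was 0.00315 and that of S100a8 was 0.00419. Leaving out TAC replicate 2 gave 0.102 for S100a9 and 0.106 for S100a8, and leaving out TAC replicate 3 gave 0.0540 for S100a9 and 0.0593 for S100a8. With sham replicate 1, 2 or 3 left out, S100a9 was at 0.112, 0.182 or 0.20 and S100a8 at 0.0995, 0.194 or 0.222. The log2 fold change of S100a9 stayed between 4.31 and 5.52 in these fits and that of S100a8 between 4.46 and 6.20.

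A difference between TAC and sham in the proportion of the 2 subunits was not detectable at this depth. S100a8 made up 35.4% of the reads of the pair in TAC replicate 1 (exact 95% interval 30.3 to 40.8), 38.4% in TAC replicate 2 (36.1 to 40.7) and 31.0% in TAC replicate 3 (28.8 to 33.2). In sham replicates 1, 2 and 3, with 75, 18 and 30 reads of the pair, it made up 36.0% (25.2 to 47.9), 27.8% (9.69 to 53.5) and 23.3% (9.93 to 42.3). These intervals cover counting error only, and every sham interval overlaps those of the TAC libraries. Within TAC, the intervals of replicates 2 and 3 do not overlap each other. The log2 ratio of S100a8 to S100a9 (each as CPM plus 0.5) was -0.87 ± 0.24 in TAC and -0.70 ± 0.21 in sham (SD, n = 3 each), a difference of -0.17 (exact two-sided permutation p = 0.4, where 3 against 3 cannot go below 0.1). The sign of that difference turned with a pseudocount of 0.1 (0.20) and on FPKM (0.03), so no direction is given.

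**Figure D2:**
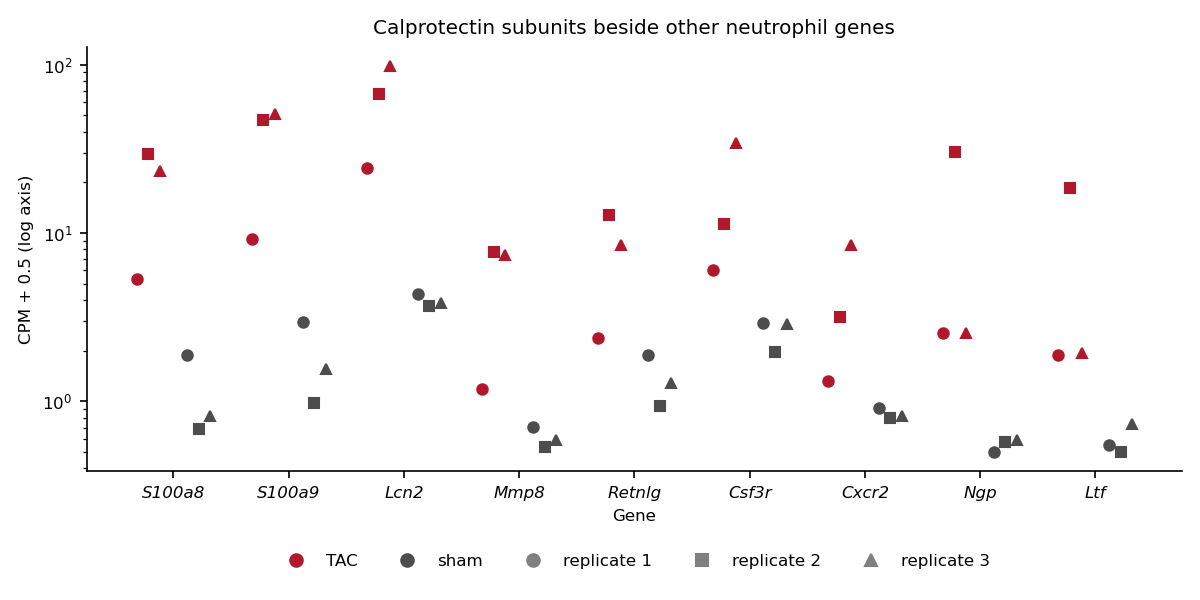
CPM plus 0.5 on a log axis for S100a8, S100a9 and 7 other neutrophil genes, with TAC left of sham for each gene and the replicate as symbol. TAC replicates 2 and 3 are close to each other for S100a9, while Ngp and Ltf stand out in TAC replicate 2 and Cxcr2 and Csf3r in TAC replicate 3.

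Among other neutrophil genes, Lcn2 and Mmp8 rose and, like the calprotectin pair, were low in TAC replicate 1 and high in TAC replicates 2 and 3, while some uncalled genes stood out in a single TAC library. Of 17 listed neutrophil markers 9 were tested, 2 were called higher, 0 lower and 7 were not called, with a median log2 fold change of 3.64. DESeq2 called 7 higher and 0 lower. Lcn2, an iron-trapping protein of granules that other stressed cells also make, had 23.9, 66.5 and 97.1 CPM in TAC replicates 1, 2 and 3, against 3.85, 3.20 and 3.32 CPM in the sham libraries (log2 fold change 4.18, SE 0.48, adjusted p = 0.0122 in edgeR). The granule collagenase Mmp8 had 0.692, 7.25 and 6.89 CPM in TAC replicates 1, 2 and 3, against 0.205, 0.0368 and 0.0924 CPM in the sham libraries (5.49, SE 1.01, adjusted p = 0.0436). Ngp, a granule protein of maturing neutrophils, had 2.04, 29.7 and 2.04 CPM in TAC replicates 1, 2 and 3, against at most 0.0924 CPM in sham, so that its level stood out in 1 library. Csf3r, the receptor for the neutrophil growth factor G-CSF, was highest in TAC replicate 3, with 5.54, 10.8 and 33.7 CPM in TAC replicates 1, 2 and 3, against 2.41, 1.47 and 2.40 CPM in the sham libraries. Of the called pair, Lcn2 lost its call without TAC replicate 2 or any sham library (adjusted p from 0.0559 to 0.102), and Mmp8 without any library other than TAC replicate 1 (0.0734 to 0.235). Ngp and Csf3r were not called (adjusted p = 0.0585 for each), and both are named after their values were seen. The defining surface marker Ly6g had 3, 7 and 2 counts in the TAC libraries and 0 in each sham library, too few to test. The summed level of the list was 42.5 to 199 CPM in TAC and 9.23 to 13.8 CPM in sham.

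Monocytes also make calprotectin. Of 12 monocyte and macrophage markers 5 were called higher, 0 lower and 7 were not called (median log2 fold change 1.59). At an unadjusted p under 0.05, 11 were higher and 0 lower, and DESeq2 called 10 higher and 0 lower. Ccr2, the receptor of recruited monocytes, had the smallest adjusted p of them (log2 fold change 2.86, SE 0.46, adjusted p = 0.0327 in edgeR). Cd68, Plac8 and Ptprc, a lysosomal protein of macrophages, a protein of inflammatory monocytes and the leukocyte antigen CD45, followed with log2 fold changes of 1.56, 1.85 and 1.99 (adjusted p = 0.0359, 0.0391 and 0.0410). Mrc1, the mannose receptor, was the other gene called. Leaving out any library other than TAC replicate 1 ended the calls of Ccr2, Cd68, Plac8 and Ptprc, with adjusted p between 0.0506 and 0.226. The summed level of all 12 markers was 734 to 1175 CPM in TAC and 542 to 639 CPM in sham. Its largest part was Lyz2, which was not called, with 341, 529 and 536 CPM in TAC replicates 1, 2 and 3. In bulk tissue, a change in the number of cells of a type and a change in their RNA per cell, upward or downward, cannot be told apart, and the part of these cells in the calprotectin result was not tested.

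Among 7 transcription factors known to act on the calprotectin genes, 6 were tested and Cebpd, a C/EBP factor of the acute phase response, was the only one called higher by edgeR, with 0 lower. DESeq2 called 2 higher and 0 lower. Cebpd had 45.2, 36.8 and 57.2 CPM in TAC replicates 1, 2 and 3, against 12.8, 22.1 and 17.7 CPM in sham (log2 fold change 1.40, SE 0.23, adjusted p = 0.0336 in edgeR). Its counts were fractional and Spidr overlaps it on the other strand, so some of its reads may belong to another gene. The call was lost when any library other than TAC replicate 1 was left out (adjusted p from 0.0585 to 0.191). Spi1, the myeloid master regulator PU.1, did not pass at 1.02 on the log2 scale (SE 0.24, adjusted p = 0.0631), nor did Cebpb at 0.30 (SE 0.28, adjusted p = 0.516). Spi1 and Cebpb are named after their values were seen.

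The muscle member S100a1 (ENSMUSG00000044080, chromosome 3, 90511034 to 90514392, minus strand) had 387, 344 and 292 CPM in TAC replicates 1, 2 and 3, against 302, 321 and 303 CPM in sham replicates 1, 2 and 3. The groups overlapped: TAC replicate 3 was the lowest and TAC replicate 1 the highest of all 6 libraries. S100a1 differed by 0.14 on the log2 scale (SE 0.14, adjusted p = 0.549 in edgeR), and over the fits with 1 library left out it ranged from 0.03 without TAC replicate 1 to 0.23 without TAC replicate 3. Its order over the TAC libraries was the reverse of that of S100a6. The summed cardiomyocyte markers had the same order in TAC, with 58459, 51331 and 39931 CPM in TAC replicates 1, 2 and 3, against 56746 to 58261 CPM in sham. Of the 10 cardiomyocyte markers 1 was called higher, Myh7, the slow myosin heavy chain (log2 fold change 4.03, SE 0.70, edgeR adjusted p = 0.0379, fractional counts), and 0 lower, while DESeq2 called 1 higher and 2 lower. Myh7 lost its call without any library other than TAC replicate 1 (adjusted p from 0.0625 to 0.209). The part of muscle cell content in the values of S100a1 was not tested.

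Another list held 8 genes, most of calcium handling and among them partners of S100a1 in the muscle cell. Of 8 tested, edgeR called 0 higher and 0 lower (1 higher and 2 lower at an unadjusted p under 0.05, and the same numbers by DESeq2), with a median log2 fold change of -0.26. In 3 of them every TAC library lay below every sham library, as in 13.1% of tested genes. In 1 every TAC library lay above, as in 18.4%. The release channel gene Ryr2, 1 of the 3, had 1105, 1064 and 918 CPM in TAC replicates 1, 2 and 3, against 1305 to 1426 CPM in sham. Its log2 fold change was -0.39 (SE 0.14, adjusted p = 0.131 in edgeR), and it is named after its values were seen. The pump gene Atp2a2 had 12827, 8699 and 7133 CPM in TAC replicates 1, 2 and 3, against 13044 to 14146 CPM in sham (log2 fold change -0.50, SE 0.22, adjusted p = 0.20 in edgeR). With TAC replicate 1 left out, Atp2a2 was called lower, at -0.79 (edgeR adjusted p = 0.0154), and limma-voom with library weights called it with all libraries (adjusted p = 0.0393). Its inhibitor Pln was at -0.22 (SE 0.24, adjusted p = 0.602).

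Set against S100a1 or S100a6 within each library, S100a9 differed between the groups without overlap. The log2 ratio of S100a9 to S100a1 was -3.59 ± 1.56 in TAC and -7.55 ± 0.85 in sham (SD, n = 3 each), a difference of 3.95. The log2 ratio of S100a9 to S100a6 was -1.18 ± 1.12 in TAC and -4.58 ± 0.72 in sham, a difference of 3.40. Both gave an exact two-sided permutation p of 0.1, the smallest that 3 against 3 allows, so neither can pass 0.05.

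**Figure D3:**
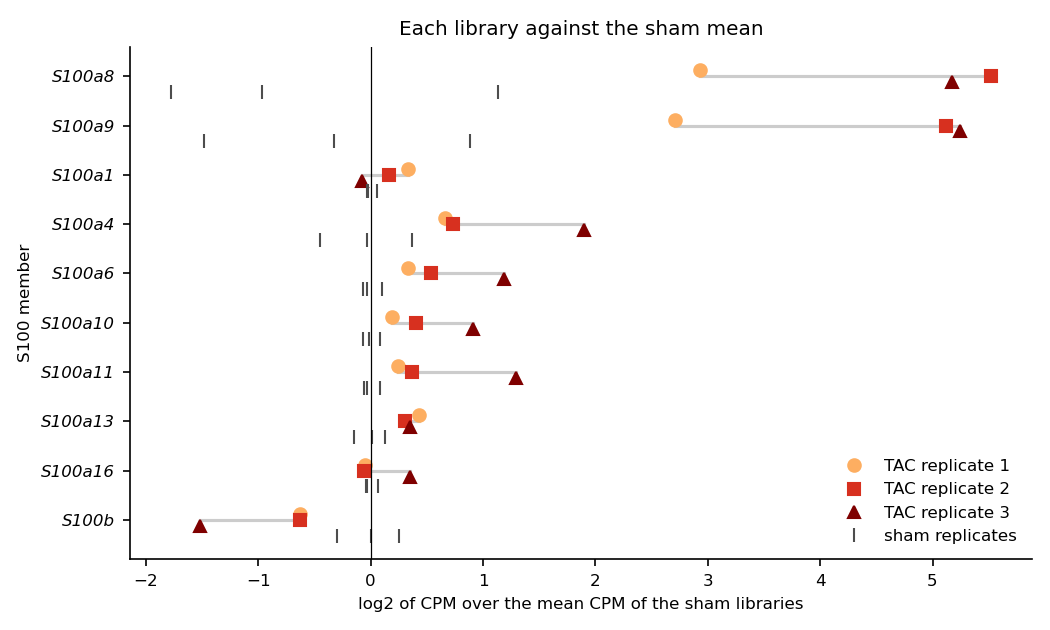
log2 of each library's CPM over the mean CPM of the sham libraries, for the 3 TAC libraries (coloured symbols) and the sham libraries (ticks below them). TAC replicate 1 is the lowest TAC library for S100a8 and S100a9, and TAC replicate 3 stands above the other TAC libraries for S100a4, S100a6, S100a10, S100a11 and S100a16.

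S100a4, S100a6, S100a10 and S100a11 had a common pattern, higher in every TAC library than in any sham library and highest in TAC replicate 3. S100a4, also called fibroblast-specific protein but made by macrophages too, had 9.81, 10.2 and 23.2 CPM in TAC replicates 1, 2 and 3, against 8.01, 4.52 and 6.05 CPM in sham replicates 1, 2 and 3 (log2 fold change 1.22, SE 0.37, adjusted p = 0.0953 in edgeR). S100a6, calcyclin, had 49.4, 56.9 and 89.4 CPM in the TAC libraries, against 42.0, 37.4 and 38.3 CPM in the sham libraries (0.73, SE 0.21, adjusted p = 0.0895). Both had their widest step between TAC replicates 2 and 3, not between the groups.

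S100a10, which forms a complex with annexin A2 and does not need calcium to do so, had 55.5, 64.1 and 91.4 CPM in TAC replicates 1, 2 and 3, against 51.3, 48.0 and 46.1 CPM in sham replicates 1, 2 and 3 (log2 fold change 0.54, SE 0.18, adjusted p = 0.121 in edgeR). S100a11, a partner of annexin A1, had 53.2, 58.0 and 109.8 CPM in the TAC libraries, against 47.5, 43.9 and 43.2 CPM in the sham libraries (0.71, SE 0.26, adjusted p = 0.138). In both, TAC replicate 1 lay only slightly above sham replicate 1.

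None of the 4 was called by edgeR with all libraries, and the count depended on the fit. Without TAC replicate 1 all 4 were called, with adjusted p of 0.0342 for S100a4, 0.0178 for S100a6, 0.0232 for S100a10 and 0.0371 for S100a11. In that fit 13.2% of all tested genes were called higher. Without TAC replicate 3 the log2 fold changes were 0.69, 0.42, 0.29 and 0.29 for S100a4, S100a6, S100a10 and S100a11, and none was called. With all libraries DESeq2 called S100a4 and S100a6 (adjusted p = 0.0143 and 0.0215), and limma-voom with library weights called these and S100a10 (0.0380, 0.0268 and 0.0461), where it called 10.1% of tested genes higher. The gene Gm42674 overlaps S100a4 on the same strand and had 0 counts in every library. S100a4 had whole-number counts throughout, as had all 10 members.

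S100a13 and S100a16 are widely expressed members, and S100a13 takes part in the export of a growth factor that lacks a signal peptide. S100a13 had 18.8, 17.3 and 17.8 CPM in TAC replicates 1, 2 and 3, against 15.1, 14.1 and 12.6 CPM in sham replicates 1, 2 and 3. The groups did not overlap and TAC replicate 3 did not stand out. On the log2 scale the difference was 0.37 (SE 0.13, edgeR adjusted p = 0.127), or 0.36 with TAC replicate 3 left out. S100a16 had 61.3, 60.6 and 80.8 CPM in TAC, against 62.1, 66.3 and 61.6 CPM in sham. Only TAC replicate 3 lay above the sham libraries, and TAC replicates 1 and 2 lay below them. The log2 difference was 0.09 (SE 0.14, adjusted p = 0.697), or -0.07 with TAC replicate 3 left out. Of the 6 members in this stromal and widely expressed class, 5 had their highest level in TAC replicate 3, as had 26.8% of all tested genes.

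Fibroblast markers were looked at as a list. Of 10 fibroblast markers edgeR called 0 higher and 0 lower (1 higher and 2 lower at an unadjusted p under 0.05, 1 and 1 by DESeq2), with a median log2 fold change of -0.23. Their summed level was 3750.4, 3695 and 3069 CPM in TAC replicates 1, 2 and 3, against 4815 to 5496 CPM in sham. Gsn and Dcn carried this sum: the other 8 markers, a division made after the values were seen, summed to 1142, 1262 and 1786 CPM in TAC replicates 1, 2 and 3, against 1712, 1296 and 1607 CPM in sham replicates 1, 2 and 3. TAC replicate 3 was thus the lowest library for the whole list and the highest for these 8, of which 4 (Col1a1, Col3a1, Pdgfra and Fstl1) had their highest TAC level in TAC replicate 3. The most abundant, Gsn, an actin-severing protein, and Dcn, a small matrix proteoglycan, did not pass in edgeR with all libraries: Gsn was at -1.12 on the log2 scale (SE 0.29, adjusted p = 0.0733 in edgeR) and Dcn at -0.19 (SE 0.23, adjusted p = 0.623). Gsn was called lower by DESeq2 (adjusted p = 0.00104), by limma-voom (0.0139), and by edgeR without TAC replicate 1 (0.0154) or TAC replicate 3 (0.0437).

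Smooth muscle and pericyte markers summed to 3037, 3005 and 3945 CPM in TAC replicates 1, 2 and 3, against 3018 to 3071 CPM in sham. The high sum of TAC replicate 3 came from Des, the intermediate filament desmin, which heart muscle cells also make. Without Des, a choice made after the values were seen, the other 9 summed to 1397, 1354 and 1091 CPM in the TAC libraries, against 1426 to 1685 CPM in sham, and 5 of them were lower in every TAC library than in any sham library, as in 13.1% of tested genes. Of the 10, edgeR called 0 higher and 0 lower, with 0 higher and 5 lower at an unadjusted p under 0.05 and 0 and 3 by DESeq2. The most abundant, Des and the pericyte gene Rgs5, were at log2 fold changes of 0.44 (SE 0.23) and 0.14 (SE 0.21), and Des was at 0.11 with TAC replicate 3 left out. Of the 10 endothelial markers 1 was called lower, the receptor gene Tie1 (-0.63, SE 0.11, edgeR adjusted p = 0.0414), and 0 higher, while DESeq2 called 1 higher and 2 lower. Without any library other than TAC replicate 1 the call of Tie1 was lost (adjusted p from 0.0510 to 0.225). Endothelial markers summed to 2177 to 2439 CPM in TAC and 2385 to 2598 CPM in sham. The most abundant by mean CPM, Fabp4, overlapped between the groups, at 479 to 637 CPM in TAC and 442 to 619.8 CPM in sham. Of the 10, 5 were lower in every TAC library than in any sham library, as in 13.1% of tested genes. Only 1 was higher in every TAC library, as in 18.4%. Fabp4 is named after its values were seen.

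The annexins include partners of S100a10, S100a11 and S100a6. Of 10 tested, edgeR called 0 higher and 0 lower, 4 were higher and 0 lower at an unadjusted p under 0.05, and DESeq2 called 4 higher and 0 lower. The median log2 fold change was 0.33. Anxa2, the partner of S100a10, had 139, 172 and 327 CPM in TAC replicates 1, 2 and 3, against 120.3, 117 and 111 CPM in sham replicates 1, 2 and 3 (log2 fold change 0.87, SE 0.29, adjusted p = 0.114 in edgeR). TAC replicate 3 was the highest library, as for S100a10. Anxa2 was called by DESeq2 (adjusted p = 0.0268), by limma-voom (0.0404) and by edgeR without TAC replicate 1 (0.0220), and without TAC replicate 3 its log2 fold change was 0.41. Anxa6, the most abundant annexin of the list, was at -0.17 (SE 0.15, adjusted p = 0.511). Anxa1, a partner of S100a11, had 51.9, 70.4 and 69.3 CPM in TAC replicates 1, 2 and 3, against 43.3 to 45.9 CPM in sham. Its log2 fold change was 0.53 (SE 0.14, adjusted p = 0.078 in edgeR). Unlike in S100a11, TAC replicate 3 did not stand above TAC replicate 2. Anxa1 is named after its values were seen.

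The annexin A2 and S100a10 complex docks plasminogen and its activator on cell surfaces. Of 6 tested genes of that system edgeR called 0 higher and 0 lower (2 higher and 0 lower at an unadjusted p under 0.05, 1 and 0 by DESeq2), and the median log2 fold change was 0.37. Serpine2, a protease inhibitor, was at a log2 difference of 0.28 (SE 0.16, adjusted p = 0.309).

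S100b (ENSMUSG00000033208, chromosome 10) was the only member with a negative log2 fold change. It had 1.34, 1.35 and 0.723 CPM in TAC replicates 1, 2 and 3, against 2.46, 1.69 and 2.08 CPM in sham replicates 1, 2 and 3. The groups did not overlap, and TAC replicate 3 was the lowest. The difference was -0.86 on the log2 scale (SE 0.34, adjusted p = 0.167 in edgeR), from 17 to 48 counts per library. Dip2a overlaps S100b on the other strand, and the protocol does not say that strand was kept. Schwann cell markers, of the glia of cardiac nerves, summed to 54.6, 59.9 and 46.1 CPM in TAC replicates 1, 2 and 3, against 54.1 to 61.4 CPM in sham. Of 9 tested, edgeR called 0 in either direction (1 higher and 2 lower at an unadjusted p under 0.05, 0 and 1 by DESeq2). The abundant ones, the neuregulin receptor Erbb3 and the myelin gene Mbp, were uncalled, Erbb3 at -0.16 (SE 0.12) and Mbp at 0.00 (SE 0.20) on the log2 scale. Of the 9, 4 were lower in every TAC library than in any sham library, Erbb3 among them, as in 13.1% of tested genes. In 1 of the 9 every TAC library lay above, as in 18.4%. Fat cell markers summed to 913, 854 and 414 CPM in TAC, against 776, 862 and 1493 CPM in sham. Of 9 tested, edgeR called 0 in either direction (0 higher and 1 lower at an unadjusted p under 0.05, 0 and 0 by DESeq2). The lipase gene Pnpla2 and the lipid droplet gene Plin4, the most abundant, were at -0.60 (SE 0.25) and -0.38 (SE 0.24), and edgeR called Pnpla2 lower without TAC replicate 1 (-0.87, adjusted p = 0.0342). Pnpla2 and Plin4 held most of the sum of TAC replicate 3, at 232 and 159 CPM there. Every gene of the list was lowest in TAC replicate 3. Adipoq had 34.2, 21.2 and 1.66 CPM in TAC replicates 1, 2 and 3, against 23.2, 11.5 and 62.4 CPM in sham. Adipoq is named after its values were seen. The part of either cell type in the S100b result was not tested.

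Receptors of released S100 proteins were measured as well. Of 9 tested receptors and signalling partners edgeR called 0 higher and 0 lower, 3 were higher and 0 lower at an unadjusted p under 0.05, and DESeq2 called 2 higher and 0 lower. The median log2 fold change was 0.37. Tlr4, the receptor of calprotectin on innate immune cells, had 11.2, 24.7 and 23.2 CPM in TAC replicates 1, 2 and 3, against 10.9, 11.1 and 10.6 CPM in the sham libraries (log2 fold change 0.86, SE 0.27, adjusted p = 0.105 in edgeR). TAC replicate 1 was at the sham level and the other TAC libraries were above it. Ager, which encodes RAGE, had 23 counts over the 6 libraries and could not be tested. Tlr4 and Ager are named because of their role and after their values were seen. The most abundant of the list were Cd36, a fatty acid transporter that also binds calprotectin, and Bsg, a receptor of S100a9. Neither passed: on the log2 scale Cd36 was at 0.14 (SE 0.15, adjusted p = 0.579) and Bsg at -0.22 (SE 0.17, adjusted p = 0.429).

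**Figure D4:**
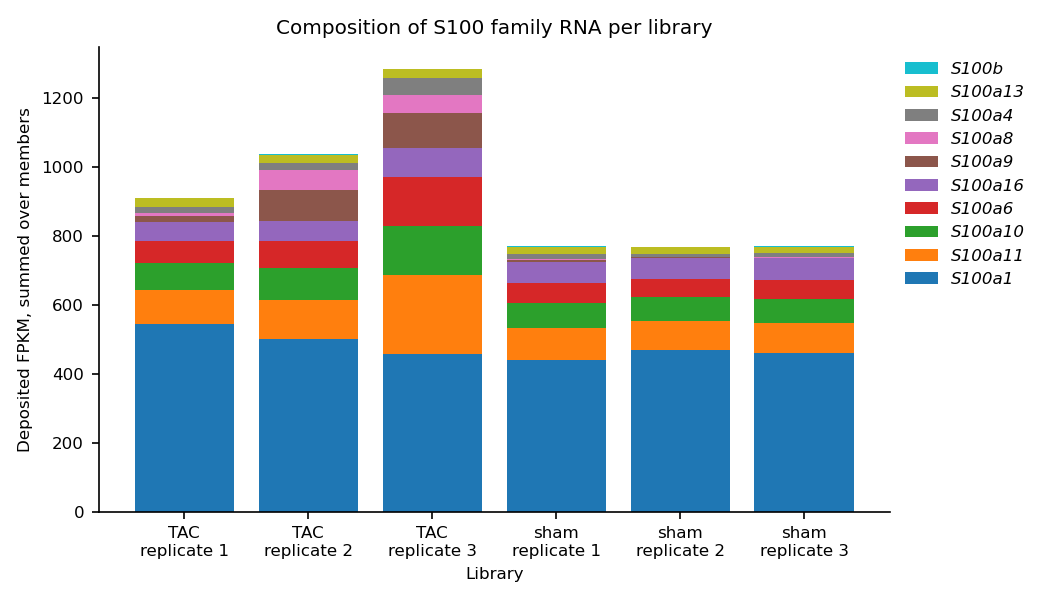
Deposited FPKM of the 10 members stacked for each library, with the TAC libraries on the left. S100a1 is the largest part in every library, and the sum is 911 to 1283 in TAC and 768 to 770.1 in sham.

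Compared per length of gene, as FPKM (fragments scaled to gene length and library size), S100a1 was the most abundant member in both groups. It was at 501 ± 43.2 FPKM in TAC and 456 ± 14.9 FPKM in sham (SD, n = 3 each). In TAC it was followed by S100a11 (146 ± 70.9), S100a10 (104 ± 33.6), S100a6 (96.4 ± 40.8), S100a9 (70.0 ± 47.1), S100a16 (64.7 ± 16), S100a8 (39.2 ± 26.2), S100a4 (29.5 ± 17.3), S100a13 (25.1 ± 1.27) and S100b (0.757 ± 0.206). In sham it was followed by S100a11 (87.8 ± 3.61), S100a10 (70.7 ± 2.73), S100a16 (60.9 ± 1.06), S100a6 (56.2 ± 3.50), S100a13 (19.5 ± 1.43), S100a4 (12.4 ± 3.45), S100a9 (2.60 ± 1.95), S100b (1.40 ± 0.257) and S100a8 (1.29 ± 1.33). In TAC the ranges of neighbours overlapped at every step from S100a11 down to S100a13, and in sham they overlapped only among S100a9, S100b and S100a8. The share of S100a1 in the summed FPKM of the family was 59.8%, 48.4% and 35.7% in TAC replicates 1, 2 and 3, against 57.1%, 61.1% and 59.8% in sham replicates 1, 2 and 3. That of the calprotectin pair was 2.82%, 14.3% and 12% in the TAC libraries, against 0.980%, 0.168% and 0.365% in the sham libraries. The family sum of TAC replicates 1, 2 and 3 was 911, 1036 and 1283 FPKM, against 770.1, 768 and 769 FPKM in sham replicates 1, 2 and 3.

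**Figure D5:**
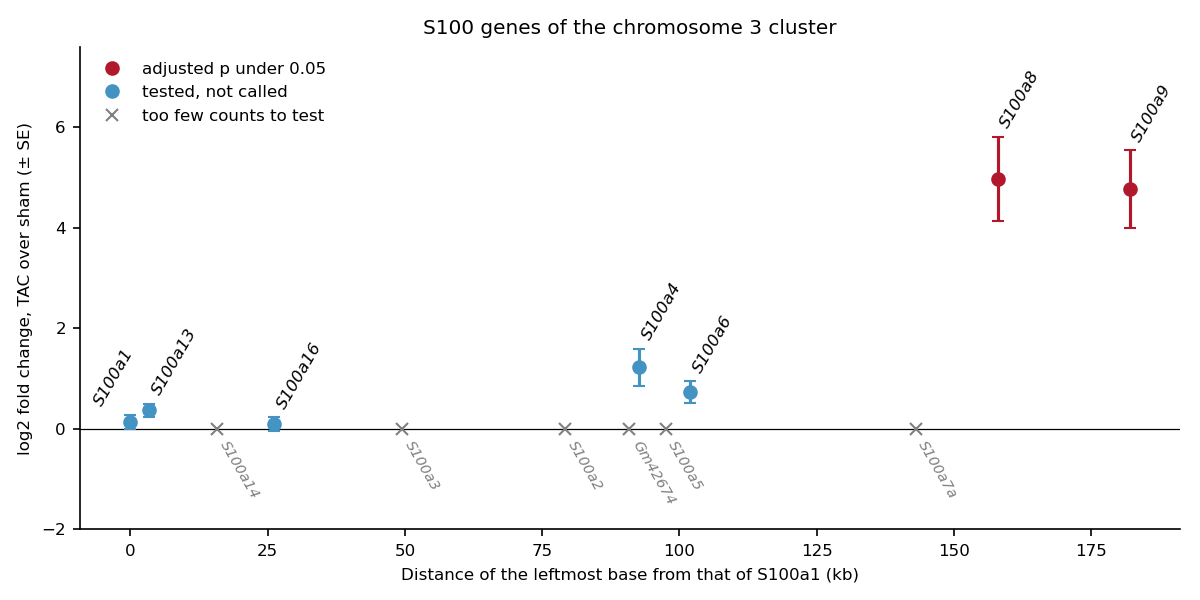
log2 fold change (TAC over sham, with SE) of the genes between S100a1 and S100a9 on chromosome 3, by the distance in kb of each gene's leftmost base from that of S100a1. Red points have an adjusted p under 0.05, blue points were tested and not called, and crosses at 0 had too few counts to test.

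Along the chromosome, members with ample counts were interleaved with S100 genes that were hardly read. The stretch from S100a1 to S100a9 spans 0.185 Mb and holds 13 protein-coding genes in the annotation, of which 7 are members and were tested. S100a1, S100a13 and S100a16 lie within 26.2 kb of its first base, S100a4 and S100a6 at 92.7 and 102 kb, and S100a8 and S100a9 at 158 and 182 kb. Between S100a6 and S100a8 lies S100a7a, with 12 counts over all libraries. S100a3, next to S100a4, had 13 counts, and S100a2, S100a5 and S100a14 had 0. S100a10 and S100a11 lie apart from this stretch, 3.04 and 3.01 Mb from its first base.

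Outside the 10 members, a list of other S100 genes and of genes with an S100 domain fused to a long repeat protein was nearly silent. Of the 14 found, 9 had 0 counts in all libraries and 1 could be tested. This was Tchh, which encodes trichohyalin, a structural protein of hair follicles. It had 2.52, 2.39 and 2.42 CPM in TAC replicates 1, 2 and 3, from 62, 55 and 57 counts. The sham libraries had 0.257, 0.625 and 0.416 CPM, from 5, 17 and 9 counts. The values within TAC were close together, unlike those of S100a8 and S100a9, and the groups did not overlap. Tchh was called higher (log2 fold change 2.45, SE 0.37, adjusted p = 0.0253 in edgeR). The gene Gm37245 overlaps it on the other strand. The call was lost without any library other than TAC replicate 1, with adjusted p of 0.0502 without TAC replicate 3, 0.0928 without TAC replicate 2, and 0.117, 0.0999 and 0.183 without sham replicates 1, 2 and 3.

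The genes with the most similar profiles were looked for by the root mean square difference of log2 CPM over the 6 libraries, each gene centred on its own mean, among 12458 other genes. For S100a9 the nearest were S100a8 (0.203), Lcn2 (0.494) and Nppb (0.592), the natriuretic peptide of stretched heart muscle, which had 167, 564 and 842 CPM in TAC replicates 1, 2 and 3, against 42.7, 36.9 and 47.4 CPM in the sham libraries. For S100a6 they were Tagln2, an actin-binding protein (0.0450), Kctd11 (0.0659) and Rpf2 (0.0679). Tagln2 had 124, 153 and 221 CPM in TAC replicates 1, 2 and 3, against 109, 99.0 and 95.8 CPM in sham, the same order as S100a6 in TAC. For S100a1 they were Dnajc9 (0.0298), Prps2 (0.0347) and Tmbim4 (0.0405), and for S100b they were Map3k7cl (0.0717), Gli2 (0.0756) and the smooth muscle myosin Myh11 (0.0773). A gene that varies little has many near neighbours on this measure, so the distances of S100a1 and S100a9 are not comparable.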

How the data were processed

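The 6 libraries were grouped by the surgery in their titles. The deposited table gives, per the file headers, an estimated count and an FPKM value per gene and library. The submitters' processing notes name GRCm38 as build and, as tools, HISAT2, StringTie 1.3.1, Bowtie2 2.2.8 and DESeq2. No source used here gives the annotation release, filters or whether strand was counted. Between 88.7% and 89.7% of the nonzero deposited counts of a library were exactly whole, the rest being fractional. Deposited FPKM values carry no depth of their own, and a total over few abundant genes can shift them. Symbols and coordinates came from GENCODE M21, which matched 22255 of 22298 identifiers.

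Counts were rounded and tested with edgeR 4.0.16 (filterByExpr with a minimum count of 10, TMM, quasi-likelihood test, two-sided), TAC against sham, with no covariate. Each SE was approximated from the fit, as the absolute log2 fold change over the root of the F statistic. CPM use TMM-scaled library sizes. The fit was tested on simulated data. Replicates differed by more than sampling noise, so each library counts as 1 sample. Ratios within a library were compared with an exact permutation test. Members, their classes and the 16 gene lists were chosen with earlier results of these data known. Named genes were the members, up to 4 called genes per list (otherwise its 2 most abundant) and, for S100a9, S100a1, S100a6 and S100b, the 3 genes of nearest profile with a mean of at least 1 CPM. One gene that this rule names is not reported here. Alternatives were DESeq2 1.42.0, other size factors, limma 3.58.1 (voom with library weights, and trend on log2 of FPKM plus 1), other filters, no mitochondrially encoded genes, a replicate block and each library left out.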

Additional observations from a re-analysis of the deposited data

How the results depend on the processing

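Of 149 refits of single members, 127 kept direction and side of the threshold, 12 lost a call, 9 gained one and 1 turned sign (S100a16, -0.07 to 0.14 with 1 library left out, negative without TAC replicate 3). Members called higher numbered 2 with all libraries, 4 by DESeq2, 5 by limma-voom with library weights and 0 to 6 with 1 library left out. Over all genes, 153 were higher and 74 lower. DESeq2 called 1071 and 598, limma-voom 1379 and 715, and limma-trend on FPKM called 59 higher. Leaving out 1 library gave 4 to 1837 higher and 8 to 1392 lower, in fits that also have fewer samples. The replicate numbers of the titles did not pair the samples (correlations of same-numbered deviations 0.01, -0.11 and -0.02). A fit with the replicate block called 48 higher, 26 lower and 0 members; its adjusted p was 0.0922 for S100a8 and 0.0880 for S100a9. Ccr2, Cd68 and Ptprc lost their calls with the block (0.0668, 0.0668 and 0.0895) and with limma-trend on FPKM (0.0609, 0.0597 and 0.0763). The S100a8 to S100a9 difference turned to 0.20 with a pseudocount of 0.1 and 0.03 on FPKM. Other named genes that turned sign were all uncalled: Pln (-0.46 to 0.00 with 1 library left out) and Dcn (-0.45 to 0.02) without TAC replicate 3, Rgs5 (-0.06 to 0.31) without TAC replicate 2, and Mbp (-0.21 to 0.12), at -0.02 with DESeq2 size factors, DESeq2's test, no filter on low counts and without mitochondrially encoded genes, -0.03 with upper-quartile factors, -0.04 on FPKM, -0.21 without TAC replicate 2 and -0.16 without sham replicate 1. The cause of these changes was not tested. S100b and the sham values of S100a8 and S100a9 rest on few counts. S100b was not fitted at a minimum count of 100.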

Other observations

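Markers of other tissues and cells that a heart sample can hold also varied between the libraries. Mesothelial markers, of the outer lining of the heart, summed to 74.0, 117 and 113 CPM in TAC replicates 1, 2 and 3, against 54.1, 198 and 232 CPM in sham replicates 1, 2 and 3. Of 7 tested, edgeR called 0 in either direction, as did DESeq2, and 0 had an unadjusted p under 0.05. Upk3b and Msln, the most abundant of them, were uncalled at -0.94 (SE 0.45) and -0.74 (SE 0.57) on the log2 scale, and without sham replicate 1 edgeR called Upk3b lower (-1.39, adjusted p = 0.0369). Red cell markers summed to 3485, 1926 and 2335 CPM in TAC, against 938, 1634 and 1036 CPM in sham. Of 6 tested, 2 were called higher, the anion exchanger gene Slc4a1 (log2 fold change 3.38, SE 0.56, edgeR adjusted p = 0.0336) and the haem synthesis gene Alas2 (1.36, SE 0.24, adjusted p = 0.0397), and 0 lower. All 6 were higher at an unadjusted p under 0.05, and DESeq2 called all 6. The Slc4a1 and Alas2 calls were lost without any library other than TAC replicate 1 (adjusted p from 0.0593 to 0.225). Red cell markers were highest in TAC replicate 1, the TAC library in which S100a8 and S100a9 were lowest.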
